A study of Mus musculus with 10 samples.

Results

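A set of 10 mouse genes of antigen presentation and dendritic cells was followed across 10 expression arrays of stem and progenitor cells of the blood that carried a HOXB4 transgene. The genes are the MHC class II chains H2-Aa, H2-Ab1 and H2-Eb1, the class II chaperones H2-DMa, H2-DMb1 and Cd74, the class II transactivator Ciita, the transcription factor Zbtb46, the costimulatory ligand Cd86 and the chemokine receptor Ccr7. Members were every probe set (the group of short probes that measures a transcript on the array) whose platform symbol is one of these genes. This gave 21 probe sets for 9 of the 10 genes, out of 45037 non-control probe sets and 18193 genes with a probe set of their own. A further 2 probe sets, 1418638_at and 1449580_s_at, are annotated to both H2-DMb2 and H2-DMb1, so they are given by probe set and H2-DMb1 has no value of its own. In the mouse assembly GRCm38.p6 the class II chains lie close together in the MHC, H2-Ab1 at chr17:34263227-34269418, H2-Aa at chr17:34282744-34287823 and H2-Eb1 at chr17:34305867-34316674.

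MHC class II molecules are pairs of an alpha and a beta chain that carry peptides to the surface of dendritic cells, macrophages and B cells for recognition by CD4 T cells. The invariant chain, encoded by Cd74, blocks the groove until the vesicles where H2-DM helps to exchange its last fragment for a peptide. The promoters of these genes share an X box and a Y box, bound by the RFX complex and NF-Y, and transcription in most cells depends on CIITA, which is recruited to these factors and does not itself bind DNA. ZBTB46 marks conventional dendritic cells and their committed precursors, CD86 engages CD28 and CTLA-4 on T cells, and CCR7 guides mature dendritic cells toward CCL19 and CCL21 in lymph nodes.

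HOXB4-ER is a homeobox factor fused to an oestrogen receptor domain, so that 4-hydroxytamoxifen (TMX) keeps it in the nucleus. HOXB4const is the unmodified factor and served as the control for effects of TMX itself. Murine cells were transduced with a retroviral vector that also encodes GFP and grown for 14 days in serum-free medium with SCF, FL, IL-11 and IL-3 and 10 nM TMX. They were then sorted as GFP+, lineage-negative, Sca1+ and c-kit+ (LSK), held in TMX for another 12 h and split into fractions with or without it. The 5 groups of 2 arrays were HOXB4-ER (HOXB4ERT in the titles) 4 h without TMX, HOXB4-ER 1 h without TMX, HOXB4-ER 1 h with TMX, HOXB4const 1 h without TMX and HOXB4const 1 h with TMX. All groups therefore carried a HOXB4 transgene and had been grown in TMX, and no untransduced cells were analysed here. The 2 arrays of a group bear the numbers biological rep 1 and rep 2. Because a sorted population was divided, the 3 HOXB4-ER arrays of one number may come from 1 population, so that p-values between numbers measure the spread between arrays and not between cultures.

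Values are deposited log2 signals, given below as log2 signal without a further unit. They can be compared between arrays for 1 probe set, not between probe sets. Array medians were 3.96 to 5.32, and 10 of the 21 probe sets had a mean level at or above the median probe set (4.05). Kit and Cd34, markers of the sorted stem and progenitor compartment, read 8.72 to 10.93 and 10.78 to 11.86 over all 10 arrays, while Ly6a (Sca1) had no probe set of its own.

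Promoters are shown for the 3 member genes whose searched window held the 2 marked motifs at the spacing given below. The motifs are therefore present in all 3 by selection, and the choice did not use the signals of the genes. Each line gives 120 bases upstream of the annotated start, 5′ to 3′ on the gene's strand (RefSeq, GRCm38.p6). Capitals mark AAC and ATTGG. The second of these is the core to which NF-Y binds, read on the other strand.
H2-Aa, chr17:34287824-34287943, minus strand: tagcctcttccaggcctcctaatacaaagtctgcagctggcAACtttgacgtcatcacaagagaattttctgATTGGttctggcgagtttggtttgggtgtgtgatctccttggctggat
H2-Eb1, chr17:34305747-34305866, plus strand: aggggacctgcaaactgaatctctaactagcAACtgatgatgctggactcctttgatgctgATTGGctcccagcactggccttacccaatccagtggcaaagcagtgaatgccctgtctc
H2-DMb1, chr17:34153071-34153190, plus strand: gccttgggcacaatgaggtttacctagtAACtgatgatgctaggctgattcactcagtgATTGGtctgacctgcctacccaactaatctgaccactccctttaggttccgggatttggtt

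AAC and ATTGG are separated by 28 bases in H2-Aa and H2-DMb1 and by 27 bases in H2-Eb1. RefSeq windows from 250 bases before to 50 after the start were searched for 5 of the 10 genes (H2-Aa, H2-Eb1, H2-DMa, H2-DMb1 and Zbtb46). Chromosome 18, where Cd74 lies, was left out of this search of the members. AAC, 27 or 28 further bases and ATTGG, searched on both strands, occurred in 427 of 32851 such windows (1.3%), and ATTGG alone, which the longer motif contains, in 12289 (37.4%). The spacing was chosen after these sequences had been seen, so its presence in them is a description. The Zbtb46 window and both H2-DMa windows held no match to the spaced motif, and 1 of the H2-DMa windows held ATTGG.

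H2-Aa, H2-Ab1, H2-Eb1, Cd74 and Cd86 read higher on the 3 HOXB4-ER replicate 1 arrays than on the other 7, whatever the TMX treatment. Cd74 (1425519_a_at), the brightest of these probe sets, stood at 11.02, 10.94 and 10.83 in HOXB4-ER replicate 1, in the order 4 h without, 1 h without and 1 h with TMX. The same groups of HOXB4-ER replicate 2 gave 5.69, 5.76 and 5.89. HOXB4const replicate 1 read 7.49 without and 7.01 with TMX, against 5.72 and 6.09 in HOXB4const replicate 2. HOXB4-ER replicate 1 thus lay above every other array, and HOXB4const replicate 1 lay between it and both replicate 2 sets without overlap. In HOXB4-ER the difference between replicate 1 and replicate 2 was 5.15 ± 0.33 (limma's standard error), a 35.5-fold signal, with an adjusted p of 0.131.

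H2-Aa encodes the alpha chain of the I-A molecule. Its brightest probe set (1435290_x_at) read 10.36, 10.28 and 10.04 in HOXB4-ER replicate 1, against 3.14, 4.99 and 2.77 in HOXB4-ER replicate 2. In HOXB4const it read 4.78 without and 5.27 with TMX in replicate 1, and 4.40 and 3.43 in replicate 2. The HOXB4const arrays of both numbers lay among or near those of HOXB4-ER replicate 2, and HOXB4-ER replicate 1 was 6.59 ± 0.58 above its replicate 2 (limma, adjusted p = 0.131). The other 3 H2-Aa probe sets showed the same order, at 4.74 to 9.67 in HOXB4-ER replicate 1 and -2.72 to 5.46 on all other arrays. That pooled range mixes a dim probe set with brighter ones, and within each of the 3 no array of another set reached HOXB4-ER replicate 1.

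H2-Ab1 encodes the beta chain that pairs with H2-Aa. Its brightest probe set (1450648_s_at) gave 9.35, 9.40 and 8.85 in HOXB4-ER replicate 1, while the HOXB4-ER replicate 2 arrays gave 5.36, 5.30 and 5.55. The HOXB4const arrays gave 4.20 and 6.39 in replicate 1 (without, with TMX) and 5.67 and 5.22 in replicate 2. In HOXB4-ER the replicate difference was 3.80 ± 0.59 (limma, adjusted p = 0.256), and in HOXB4const it was -0.15 ± 0.73. The 2 dimmer H2-Ab1 probe sets differed by 6.10 ± 0.51 and 5.65 ± 0.83 in HOXB4-ER. Their HOXB4-ER replicate 2 arrays read 0.89 to 1.55 and 1.07 to 4.97, mostly below the array medians, so these sizes are uncertain.

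H2-Eb1, the beta chain of the I-E molecule, was measured by 1 probe set (1417025_at). It stood at 9.71, 9.44 and 9.47 in HOXB4-ER replicate 1 and at 4.10, 2.21 and 3.32 in HOXB4-ER replicate 2. HOXB4const read 6.41 without and 5.47 with TMX in replicate 1, and 5.52 and 3.75 in replicate 2. Those 2 HOXB4const sets overlapped, and HOXB4-ER replicate 1 lay above all of them, 6.33 ± 0.45 above HOXB4-ER replicate 2 (limma, adjusted p = 0.131). The HOXB4-ER replicate 2 values of H2-Eb1, H2-Aa and Cd86 lie near or below their array's median, and without detection calls the size of such differences is uncertain.

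Cd86 had 2 probe sets, and both placed the HOXB4-ER replicate 1 arrays above the other 7. The brighter (1420404_at) read 6.65, 6.95 and 6.55 in HOXB4-ER replicate 1, against 3.62, 3.48 and 3.21 in HOXB4-ER replicate 2. In HOXB4const it was 3.05 without and 4.37 with TMX in replicate 1, and 3.20 and 5.36 in replicate 2. HOXB4-ER replicate 1 was again above all other arrays, and its difference from replicate 2 was 3.28 ± 0.33 for this probe set and 5.76 ± 0.49 for 1449858_at (limma, adjusted p = 0.161 and 0.131). Within HOXB4const the higher arrays were the 2 with TMX, not those of one replicate number.

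**Figure D1:**
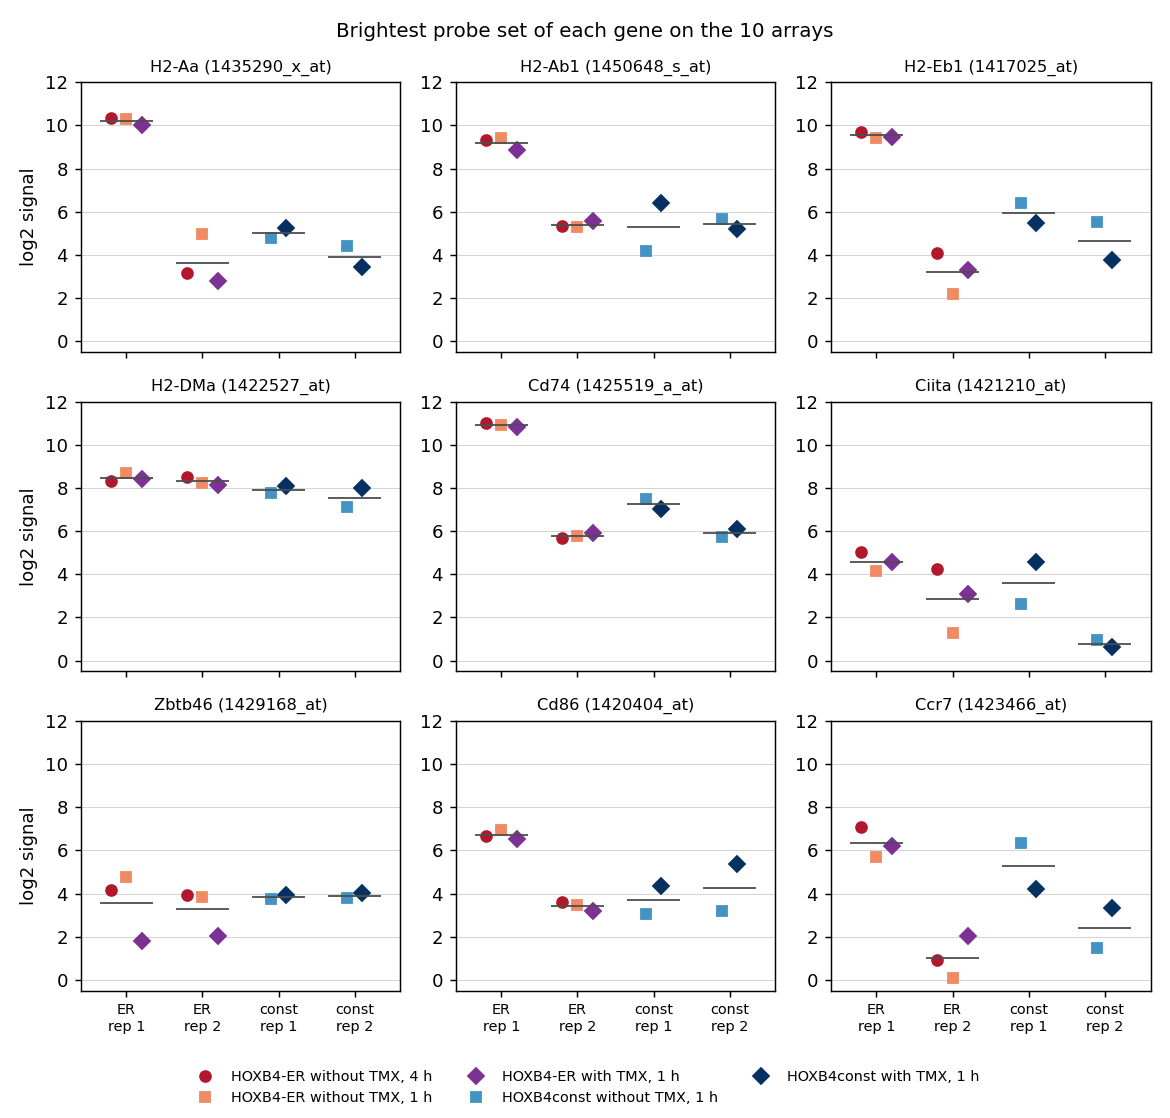
Deposited log2 signal (y axis) of the brightest probe set of each of 9 genes on the 10 arrays, arranged by construct and replicate number (x axis). Symbols mark the TMX groups and horizontal lines the mean of each set. The 3 HOXB4-ER replicate 1 arrays of Cd74 sit between 10.83 and 11.02, above the other 7 arrays, while H2-DMa lies between 7.10 and 8.70 throughout.

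Ccr7 (1423466_at) was higher in replicate 1 of both constructs without overlap, and Ciita was higher there on average only. Ccr7 read 7.08, 5.70 and 6.23 in HOXB4-ER replicate 1 and 0.94, 0.09 and 2.05 in HOXB4-ER replicate 2. HOXB4const read 6.33 without and 4.20 with TMX in replicate 1, against 1.47 and 3.32 in replicate 2. All 5 replicate 1 arrays lay above all 5 replicate 2 arrays, and the 2 constructs overlapped within replicate 1. The replicate difference over both constructs was 4.34 ± 0.79, with an adjusted p from limma of 0.166, the smallest of any member in that comparison.

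Ciita, the coactivator of class II transcription, was dim in its 3 probe sets. The brightest (1421210_at) read 5.04, 4.14 and 4.55 in HOXB4-ER replicate 1, against 4.23, 1.29 and 3.10 in HOXB4-ER replicate 2. HOXB4const read 2.63 without and 4.58 with TMX in replicate 1, and 0.95 and 0.62 in replicate 2. HOXB4-ER replicate 1 and HOXB4const replicate 1 overlapped, as did both HOXB4-ER sets. The HOXB4-ER sets also overlapped for 1421211_a_at, at 0.53 to 4.99 in replicate 1 against 0.32 to 3.03. For 1447075_at they overlapped at 1.15 to 4.51 against -1.29 to 1.44. The replicate differences of the 3 probe sets over both constructs were 2.15 ± 0.51, 1.96 ± 0.60 and 1.96 ± 0.50 (limma, adjusted p = 0.214, 0.282 and 0.236).

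H2-DMa, which helps to load class II with peptide, differed little between the replicate numbers. Its brighter probe set (1422527_at) read 8.32, 8.70 and 8.40 in HOXB4-ER replicate 1 and 8.53, 8.24 and 8.16 in HOXB4-ER replicate 2, a difference of 0.16 ± 0.32 with a 95% interval of -0.69 to 1.01. HOXB4const read 7.75 and 8.08 in replicate 1 (without, with TMX) and 7.10 and 7.99 in replicate 2. For this probe set all 6 HOXB4-ER arrays lay above all 4 HOXB4const arrays, by a small margin. The share of all probe sets that do so was not counted. The dimmer H2-DMa probe set, 1459872_x_at, overlapped between the constructs, at 1.94 to 5.47 in HOXB4-ER and 1.62 to 6.10 in HOXB4const. Its replicate difference in HOXB4-ER was 0.98. The shared probe sets of H2-DMb1, the partner chain of H2-DMa, did order the HOXB4-ER arrays. Probe set 1418638_at read 6.01, 5.28 and 5.78 in HOXB4-ER replicate 1 and 3.13, 3.08 and 2.63 in HOXB4-ER replicate 2, and 1449580_s_at read 5.93, 5.47 and 5.96 against 1.86, 2.23 and 3.72. In HOXB4const (without, with TMX) 1418638_at read 2.98 and 5.10 in replicate 1 and 3.97 and 2.76 in replicate 2, and 1449580_s_at read 5.39 and 2.77 in replicate 1 and 3.09 and 2.01 in replicate 2. For each probe set 1 HOXB4const replicate 1 array thus came close to the lowest HOXB4-ER replicate 1 array. Neither passed the threshold (limma, adjusted p = 0.435 and 0.275).

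The 4 probe sets of Zbtb46 did not share a pattern. The brightest, 1429168_at, read 4.15, 4.78 and 1.81 in HOXB4-ER replicate 1 and 3.93, 3.85 and 2.02 in HOXB4-ER replicate 2, in the same order of groups. HOXB4const read 3.77 and 3.94 in replicate 1 (without, with TMX) and 3.78 and 4.02 in replicate 2, so the 2 HOXB4-ER arrays with TMX were the low ones. Among the others, 1440489_at and 1454884_at did not overlap between HOXB4-ER replicate 1 and replicate 2, with differences of 3.13 ± 0.78 and 2.35 ± 0.97. The remaining probe set, 1453856_at, had a difference of -1.25 ± 1.63.

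Counted over the 21 probe sets, 14 read higher on all 3 HOXB4-ER replicate 1 arrays than on all 3 of HOXB4-ER replicate 2, as did 11.7% of all probe sets, and 0 read lower (7.52% of all). Against the other 7 arrays together, HOXB4-ER replicate 1 was higher without overlap for 11 of 21, against 1.9% of all probe sets. These 11 were the probe sets of H2-Aa, H2-Ab1, H2-Eb1, Cd74 and Cd86. Within HOXB4const, 6 of 21 were higher in replicate 1 without overlap, against 22.6% of all probe sets, a share near the background. Between the constructs, 13 of 21 were higher in HOXB4-ER replicate 1 than in HOXB4const replicate 1 (7.47% of all probe sets), whereas 2 were higher and 4 lower in HOXB4-ER replicate 2 than in HOXB4const replicate 2 (7.77% and 18.8% of all). Earlier results of these data had already shown these genes to follow the replicate number. The counts and shares are therefore a description and not a test.

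The differences between replicate numbers were fitted with limma over all probe sets. Over both constructs, 20 of 21 probe sets were higher in replicate 1, with a median over the 9 genes of 2.22 against 0.15 over all probe sets. At an adjusted p under 0.05, 0 of 21 and 0% of all probe sets passed, and 11 members and 6152 probe sets in all had an unadjusted p under 0.05. Within HOXB4-ER the median gene difference was 3.80 against 0.13 for all probe sets, with 0 of 21 and 0% of all passing and 14 members among 3898 probe sets at an unadjusted p under 0.05. For HOXB4const the median was 1.11 against 0.14, again with 0 of 21 and 0% passing and 3 members among 4019 at that unadjusted p. The terms for each construct were added after the levels had been seen.

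Whether the replicate difference itself differed between the constructs was tested in the same model. It was 5.48 ± 0.92 larger in HOXB4-ER for H2-Aa (1435290_x_at), 5.03 ± 0.70 for H2-Eb1, 3.95 ± 0.94 for H2-Ab1 (1450648_s_at), 3.81 ± 0.52 for Cd74 and 3.85 ± 0.53 for Cd86 (1420404_at). For Ccr7 it was 2.44 ± 1.40, for H2-DMa (1422527_at) -0.21 ± 0.51 and for the 3 Ciita probe sets -1.11 ± 1.02, -0.41 ± 1.35 and 1.77 ± 0.79. Over the 9 genes the median was 3.81 against 0.00 for all probe sets, and 0 of 21 and 0% of all passed, with a smallest adjusted p of 0.993 and 11 members among 2253 probe sets at an unadjusted p under 0.05.

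The calls depended on how the variance of each probe set was moderated. Over both constructs, limma with a prior variance that follows the mean level called 8 of 21 members, all higher in replicate 1, against 6.06% of all probe sets in either direction and 4.13% higher. Within HOXB4-ER that setting called 11 of 21 probe sets of 6 genes higher in replicate 1, against 1.78% of all, and within HOXB4const it called 1 (Cd74, adjusted p = 0.0206), against 2.12%. These were 3 of H2-Aa, 3 of H2-Ab1, both of Cd86 and the single ones of H2-Eb1, Cd74 and Ccr7. In that setting the difference between the constructs was called for 5 of 21, all larger in HOXB4-ER, against 0.0622% of all. They were Cd74 (adjusted p = 0.00212), H2-Eb1 (0.00503), H2-Aa by 1435290_x_at (0.00632) and 1452431_s_at (0.00823), and H2-Ab1 by 1450648_s_at (0.0322). With 1 array left out at a time, only Cd74 was called in every fit, and each of the other calls was lost in some. Each group had 2 arrays and its own mean, so the array that remained was fitted exactly. Leaving out either array of a group therefore gave the same difference and residual spread, and only the mean level used by the prior changed. The 10 fits thus repeat 5 and are not 10 separate checks. They cannot name a single array on which a call rests.

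**Figure D2:**
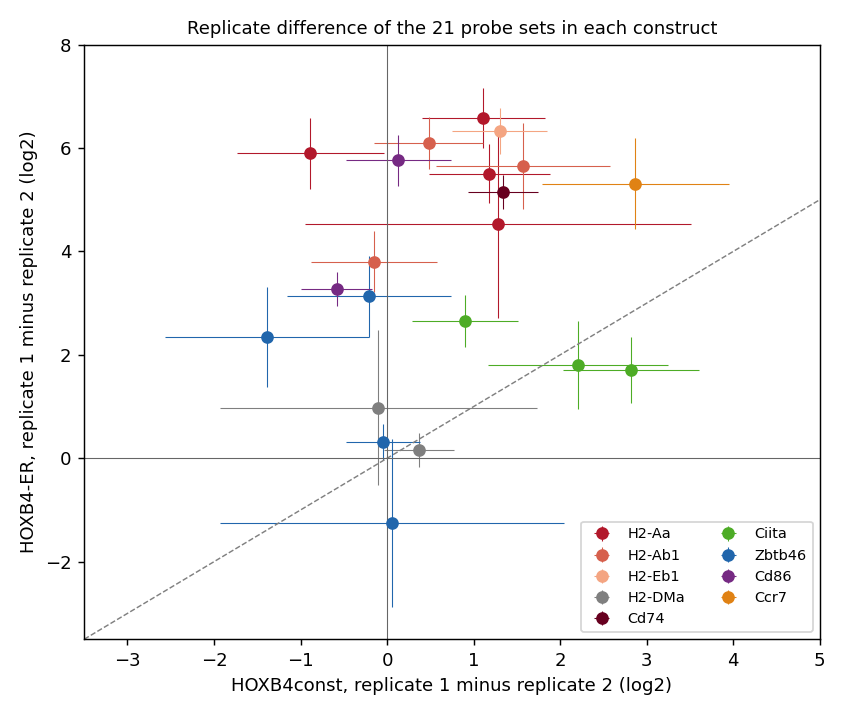
Difference between replicate 1 and replicate 2 (log2) in HOXB4-ER (y axis) against HOXB4const (x axis) for the 21 probe sets, coloured by gene, with bars of 1 standard error and a dashed line where both are equal. Class II chains, Cd74 and Cd86 lie far above the line, Cd74 at 5.15 and 1.34, while H2-DMa lies near the origin.

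Within HOXB4-ER replicate 1, where H2-Aa, H2-Ab1, H2-Eb1, Cd74 and Cd86 were high, the arrays without TMX lay within 0.55 of the array with TMX for their brightest probe sets. Cd74 differed by 0.19 at 4 h without TMX and by 0.10 at 1 h without TMX from the array with TMX. H2-Eb1 differed by 0.24 and -0.02, H2-Aa (1435290_x_at) by 0.32 and 0.24, H2-Ab1 (1450648_s_at) by 0.50 and 0.55 and Cd86 (1420404_at) by 0.10 and 0.40. These are single differences with no error. Within replicate 2, where the signals were low, H2-Aa differed by 0.37 at 4 h and 2.22 at 1 h and H2-Eb1 by 0.79 and -1.10.

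Averaged over both numbers, Cd74 differed by -0.02 at 1 h without minus with TMX, with a 95% interval of -5.74 to 5.71 that holds the full distance between the replicates. In this fit 0 of 21 member probe sets passed at 1 h (0% of all), and 1 member among 2145 probe sets had an unadjusted p under 0.05. Between 4 h without and 1 h with TMX, 0 of 21 passed (0% of all), with 1 member among 1509 at that unadjusted p. Between 4 h and 1 h without TMX, 0 of 21 passed (0% of all), with 0 members among 2558. HOXB4const gave 0 of 21 (0% of all) and 0 members among 1956, and the HOXB4-ER withdrawal minus that of HOXB4const gave 0 of 21 (0% of all) and 1 member among 1698. With a prior variance that follows the mean level, limma called 0 members in each of these 5 comparisons.

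The member with the unadjusted p under 0.05 at 1 h, at 4 h and in the difference between constructs was Zbtb46 by 1429168_at. It was 2.40 ± 0.46 higher in HOXB4-ER at 1 h without than with TMX (limma, adjusted p = 0.536) and 2.13 ± 0.46 higher at 4 h without than at 1 h with TMX (limma, adjusted p = 1). In HOXB4const it differed by -0.21 ± 0.46. Both replicate numbers of HOXB4-ER gave the same direction, 2.97 and 1.83 at 1 h and 2.34 and 1.92 at 4 h. The 3 other Zbtb46 probe sets gave 0.70 ± 1.65, -0.32 ± 1.73 and -0.13 ± 1.55 at 1 h, so the gene has no single direction here.

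Cd86 leaned the other way in HOXB4const. Its probe set 1420404_at differed by -1.32 in replicate 1 and -2.16 in replicate 2, without minus with TMX, and 1449858_at by -1.55 and -3.59. With standard errors of 1.57 and 2.69 neither mean difference passed (limma, adjusted p = 1 for both).

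**Figure D3:**
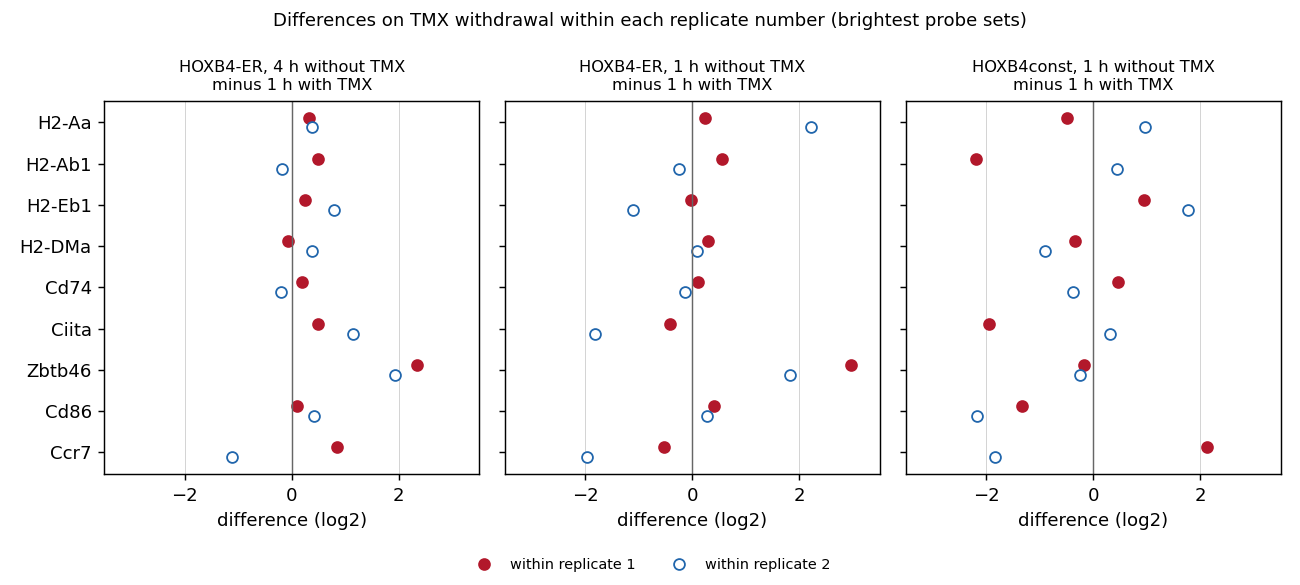
Difference on TMX withdrawal (log2, x axis) of the brightest probe set of each gene (y axis), within replicate 1 (filled) and within replicate 2 (open), for HOXB4-ER at 4 h, HOXB4-ER at 1 h and HOXB4const at 1 h, each against its 1 h array with TMX. Each point is 1 array minus another. Cd74 stays within 0.20 of zero in HOXB4-ER for both numbers, and Zbtb46 (1429168_at) lies between 1.83 and 2.97 in HOXB4-ER.

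Comparing HOXB4-ER with HOXB4const, both with TMX, the differences were large in one replicate number and small or negative in the other. Within replicate 1, HOXB4-ER was higher by 3.82 for Cd74, 4.77 for H2-Aa, 4.00 for H2-Eb1, 2.47 for H2-Ab1 and 2.18 for Cd86. Within replicate 2 they were -0.20 for Cd74, -0.66 for H2-Aa, -0.44 for H2-Eb1, 0.33 for H2-Ab1 and -2.15 for Cd86, with H2-Ab1 the only one of the 5 above zero. The averaged Cd74 difference was 1.81 ± 2.44, and 0 of 21 passed (0% of all), with 1 member, Zbtb46 by 1429168_at, among 1972 probe sets at an unadjusted p under 0.05.

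A list of further class II genes, which holds the chains H2-Oa, H2-Ob, H2-DMb2, H2-Eb2 and H2-Ea beside regulators and processing genes, gave both directions. Of 17 measured, 10 were higher and 7 lower in HOXB4-ER replicate 1 than in replicate 2, with a median of 0.26 against 0.13 for all probe sets and 0 passing. H2-Oa, a chain of the H2-O molecule that restrains H2-DM, read 7.39, 7.65 and 7.53 in HOXB4-ER replicate 1 and 7.24, 7.24 and 6.81 in HOXB4-ER replicate 2, a narrow gap beside those of H2-Aa or H2-Eb1. Ctss, the cathepsin that degrades the invariant chain, was 3.94 ± 0.33 higher (limma, adjusted p = 0.131), at 11.60 to 11.69 against 7.34 to 7.93. Marchf1, a ubiquitin ligase that lowers surface class II, was 3.41 ± 0.71 higher (limma, adjusted p = 0.365). Rfx5, a subunit of the X box factor, read 8.49, 6.97 and 7.54 in HOXB4-ER replicate 1 and 8.43, 7.86 and 7.92 in replicate 2. Among 20 genes of interferon-gamma signalling and class I presentation, 13 were higher and 7 lower, with a median of 0.19 and 0 passing. Cxcl10 had the smallest p at 5.11 ± 0.51 and Irf1 followed at 1.15 ± 0.32 (limma, adjusted p = 0.16 and 0.465). Among the partners of CD86 and CCR7, 2 of 4 genes had a probe set of their own, and of these 1 was higher and 1 lower. Cd28 was 4.07 ± 0.44 higher and Ctla4 differed by -0.43 ± 0.77 (limma, adjusted p = 0.161 and 0.898).

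Markers of several blood cell types differed between the same arrays. In bulk RNA, more cells of a type and more RNA per cell cannot be told apart. The summed signals below add unlogged values of different probe sets, so the brightest probe sets weigh most. Such a sum can be compared between arrays for 1 list, not between lists. Of 26 dendritic cell markers, 25 were higher in HOXB4-ER replicate 1 than in replicate 2 (median 1.06, 0 passing), and their summed signal was 7011 to 10138 against 3828 to 4872. Irf8 and Sirpa had the smallest p, at 3.79 ± 0.32 and 3.11 ± 0.29 (limma, adjusted p = 0.131 and 0.146), while Xcr1, a marker of cross-presenting dendritic cells, read 2.83 to 3.28 against 0.16 to 4.08. All 23 monocyte and macrophage markers were higher (median 2.82, 0 passing), with the smallest p for Lgals3 at 6.31 ± 0.32 and Mpeg1 at 6.04 ± 0.38 (limma, adjusted p = 0.131 for both). Their summed signal was 22059 to 31560 in HOXB4-ER replicate 1 and 2886 to 3190 in HOXB4-ER replicate 2.

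In HOXB4const the monocyte and macrophage markers were also higher in replicate 1, in 20 of 23 (median 1.63, 0 passing), at a summed signal of 19046 to 20334 against 6049 to 7024. Lyz1 and Lyz2, the lysozyme genes, made up 65.3% to 72.5% of that sum in HOXB4const replicate 1 and 47.7% to 68.2% in HOXB4-ER replicate 1. In replicate 2 they made up 65.4% to 65.5% in HOXB4const and 47.8% to 53.7% in HOXB4-ER. These 2 genes were set apart after their values were seen. Without them the sum was 10067 to 11542 in HOXB4-ER replicate 1 against 5590 to 6618 in HOXB4const replicate 1. In replicate 2 it was then 1376 to 1591 in HOXB4-ER and 2097 to 2424 in HOXB4const. The replicate difference was larger in HOXB4-ER for 20 of the 23 markers (median 1.35 against 0.00 for all probe sets, 0 passing). Lgals3, for example, read 8.83 to 9.97 in HOXB4-ER replicate 1 against 7.17 to 7.41 in HOXB4const replicate 1. Granulocyte markers were higher in HOXB4-ER replicate 1 for 10 of 12 (median 1.67, 0 passing), with S100a9 at 8.42 ± 0.89 and S100a8 at 7.19 ± 0.72. The summed signals of the 12 markers overlapped, at 18130 to 21582 against 13687 to 18176. The 2 lower markers, Ctsg and Prtn3, were bright, at 12.33 to 12.43 against 12.45 to 13.03 and 10.93 to 11.19 against 11.03 to 11.42. Mpo, also bright, overlapped at 12.48 to 13.26 against 12.36 to 12.84. B cell markers were higher for 11 of 13 (median 0.73, 0 passing), with Ighm at 6.40 ± 0.69 and Blnk at 4.37 ± 0.57. Their summed signal was 1013 to 1209 against 141 to 201. In HOXB4-ER replicate 1 most of that sum came from Ighm (9.30 to 9.60) and Blnk (7.52 to 7.89). On all 3 of those arrays 6 of the 13 markers lay below the array median. Cd79a, which defines the lineage, read 3.72 to 4.20 against -0.39 to 3.20. T and NK markers were higher for 7 of 12 (median 0.18, 0 passing), with the smallest p for Il7r at 4.65 ± 0.39, at a summed signal of 754 to 911 against 531 to 692. Il7r alone read 7.99 to 9.17 against 3.75 to 4.05, and 5 of the 12 lay below the array median throughout HOXB4-ER replicate 1. Stem and progenitor markers were lower for 14 of 18 (median -0.44, 0 passing), such as Hlf at -0.89 ± 0.34, at a summed signal of 10203 to 12541 against 13783 to 16284. The part of these cell types in the class II levels was not tested.

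RNA quality also differed with the number. The Gapdh control signal at the 3′ end minus that at the 5′ end was 1.01 to 1.42 in HOXB4-ER replicate 1 and 1.48 to 3.47 in HOXB4-ER replicate 2. It was 0.74 to 1.28 in HOXB4const replicate 1 and 2.93 to 3.98 in HOXB4const replicate 2. Its part in the result was not tested.

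The members did not form 1 block. Correlated over the 10 arrays with the mean of the other members, Cd74 had r = 0.984, H2-Aa 0.937, H2-Eb1 0.934, H2-Ab1 0.898, Cd86 0.86, Ccr7 0.785, Ciita 0.642, H2-DMa 0.464 and Zbtb46 0.0453. Averaged over the 9 genes and centred, the arrays stood at 2.49, 2.34 and 1.94 in HOXB4-ER replicate 1, -1.08, -1.56 and -1.47 in HOXB4-ER replicate 2, -0.32 and 0.00 in HOXB4const replicate 1 and -1.28 and -1.05 in HOXB4const replicate 2. Among 11335 other genes at or above the median level, those most correlated with this mean were Hpse (0.982), Mcpt1 (0.981), Anxa5 (0.979), Gpr137b-ps (0.977), Evi2a (0.974), S100a8 (0.971), Cd52 (0.969), Irf8 (0.967), Stx7 (0.966) and Lcn2 (0.965). These correlations describe 10 arrays that fall into sets, and the points share populations and scaling. The level filter used the mean of all 10 arrays, so a gene could pass it through HOXB4-ER replicate 1 alone. S100a8 shows the shape, at 9.98 to 10.91 in HOXB4-ER replicate 1, 2.32 to 4.11 in HOXB4-ER replicate 2, 5.40 to 5.64 in HOXB4const replicate 1 and 1.93 to 4.00 in HOXB4const replicate 2.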

How the data were processed

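Biotin-labelled, linearly amplified RNA was hybridised to Affymetrix mouse whole-genome arrays, per the labels' protocols. The deposited values are log2 signals. GCOS and RMA are listed, without roles, in the submitters' processing notes. The mean of the unlogged values, trimmed by 2% at each end, was 100 on all 10 arrays, and values reach below 0. They were not normalized again. No detection calls or scan dates were used here, and the number of arrays limits the precision.

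Of 45101 probe sets, 64 controls were left out. The platform annotation gave 1 symbol for 34945, several for 932 and none listed for 9160. Probe sets ending in _x_at or _s_at can match several transcripts.

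limma 3.58.1 (R 4.3.3) was fitted to all 45037 probe sets with a mean for each of 5 groups, for the 6 comparisons between groups, and with terms for replicate number, over both constructs or within each. Tests were two-sided with Benjamini-Hochberg adjustment over all probe sets and a threshold of 0.05. Errors are limma's moderated standard errors. The fits were run on simulated data with independent noise of the same spread for all probe sets. Those data held no shared populations and no trend of spread with level, so they cannot judge calls that depend on these.

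The members and 9 gene lists (143 of 157 entries measured) were chosen with earlier results of these data known. All members were named. Of each list, the 2 genes with the smallest p were eligible where none passed, as were the 10 genes most correlated with the members. Kit, Cd34, Rfx5, H2-Oa, Lyz1, Lyz2, Xcr1, Cd79a, Ctsg, Prtn3, Mpo, Cd83, Ccl22, Fscn1, Relb and Batf3 were named after their values were seen. A gene's brightest probe set stands for it in counts of genes. Alternatives were a trend in the prior variance, a floor, brighter probe sets only, arrays left out in turn and replicate blocks.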

Additional observations from a re-analysis of the deposited data

How the results depend on the processing

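As deposited and without a trend in the prior variance, 0 members passed in each of the 10 comparisons. The count stayed at 0 with arrays centred on their medians, with quantile normalization, with 1 mean per gene and without each array in turn (lowest 0, highest 0), and with arrays averaged by construct and number, which was run only for replicate number over both constructs. With the trend, limma called 8 of 21 members for replicate number over both constructs (6 to 11 with 1 array left out), 11 within HOXB4-ER (7, 9, 10 or 11), 1 within HOXB4const (Cd74, 0 to 2) and 5 for the difference (2 to 5). The HOXB4const call was lost without the HOXB4-ER with TMX replicate 1 array or without either HOXB4const array kept without TMX. Keeping only brighter probe sets called 6 of 10 members within HOXB4-ER (169 of 22519 probe sets). Members can pass that filter through HOXB4-ER replicate 1 itself, so the count supports nothing. Raising values below 4 to 4 called 7 of 21 (156 of 45037), and dropping the group terms called 1 over both constructs (Ccr7, 343 of 45037). Over both constructs the brighter set and the floor called 0 members, while 850 of 22519 and 504 of 45037 probe sets passed. Why these counts moved was not tested, except that the brighter set tests fewer probe sets. No direction of a called value was reversed.

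Arrays of one number deviated together in 10 of 10 pairs of groups (r = 0.21 to 0.527), but with 2 numbers this does not establish pairing. With the replicate block, or with a block for each construct and number (added after seeing the data), 0 members passed in the 6 comparisons between groups. The latter block gave 8 members among 2366 probe sets an unadjusted p under 0.05 for HOXB4-ER minus HOXB4const with TMX. That block with a trend called 1, Cd74, in that comparison (1.81), an average of a large and a small difference. With that block the 95% interval of the Cd74 withdrawal difference in HOXB4-ER was -1.07 to 1.04 at 1 h and -1.07 to 1.05 at 4 h. Dim probe sets (11 of 21 below the median level) limit what Ciita, Zbtb46 and Ccr7 can show, and the dim low side limits the size of the H2-Aa, H2-Ab1, H2-Eb1 and Cd86 differences.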

Other observations

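Within HOXB4-ER replicate 1, the array 4 h after TMX withdrawal read higher than both 1 h arrays for Cd83 and Ccl22, which are known from maturing dendritic cells. Cd83 stood at 10.07 there, against 7.80 without and 8.11 with TMX at 1 h. Ccl22 stood at 9.59, against 7.15 and 6.64. Irf8, a factor of dendritic cell and monocyte development, read 9.52, against 8.50 and 8.10. Ccr7 read 7.08, against 5.70 and 6.23. Several other dendritic cell markers did not follow. Fscn1 stood at 5.12, against 6.08 and 5.08, Relb at 6.47, against 6.53 and 5.23, and Batf3 at 2.54, against 5.58 and 4.37. The 26 measured markers fell above, below and between the 1 h arrays in both replicate numbers of HOXB4-ER. How all probe sets fell was not counted, so no excess of the markers can be read from this. In HOXB4-ER replicate 2 the 4 h array gave 1.51 for Cd83, against 1.96 and 3.27, and 4.29 for Ccl22, against 4.78 and 1.14. These are single arrays picked after their values were seen, and no test was made.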
